A study of Mus musculus with 12 samples.

Results

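The clustered histone genes were taken as every gene of the deposited count table whose symbol begins with Hist1h, Hist2h, Hist3h or Hist4h. There were 68 of them among the 23420 genes of the table, with 54 in the Hist1 cluster on chromosome 13, 10 in Hist2 on chromosome 3, 3 in Hist3 on chromosome 11 and 1 in Hist4 on chromosome 6. By class they were 6 H1, 18 H2A, 19 H2B, 12 H3 and 13 H4 genes. Counts were found for 64 of them, and 55 had enough counts to be tested.

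RNA was sequenced from M-MDSCs, immature monocytic cells that restrain T cells, sorted as CD11b+Ly6G−Ly6Chi from mouse bone marrow. There were 6 aged mice of 24 months and 6 young mice of 6 months, all male C57BL/6JNIA with no treatment or engineered allele named in the labels, and 1 library was made per mouse. The study asked how age changes these cells.

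The nucleosome holds DNA around a core of H2A, H2B, H3 and H4, and H1 binds the linker between cores. Most of these proteins are made in S phase from the clustered genes, which have no introns in their principal transcripts. Their mRNA usually ends in a conserved stem-loop in place of a poly(A) tail, and the stem-loop is bound by SLBP, which directs its processing, translation and decay. Some of these genes also give longer polyadenylated transcripts in cells that have stopped dividing.

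The stem-loops are shown because mRNAs that end in one usually lack a poly(A) tail and because their stem divides the classes. Some annotated transcripts run on past the hairpin, by 1643 bases in Hist3h2a. There the hairpin does not tell how the mRNA ended. A hairpin of 16 bases, with a stem of 6 bases that begins with GG and a loop of 4 bases that begins with TT, was searched in the GENCODE transcript of each gene and found in 43 of the 68 genes. It was present in 0.293% of 55341 genes searched in the same way. No match says only that these letters are not in the annotated transcript. The loop is in capitals.
Hist1h1c, Hist3h2a, Hist1h2bg, Hist2h3c1: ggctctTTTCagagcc
Hist1h3c, Hist1h3e, Hist1h2bk: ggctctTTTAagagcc
Hist2h2ac: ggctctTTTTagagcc
Hist1h4d, Hist1h4f, Hist1h4h, Hist4h4: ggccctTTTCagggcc
Hist2h4, Hist1h4i: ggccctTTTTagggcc
Hist1h4b, Hist1h4j: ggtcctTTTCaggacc
The first 3 hairpins, which share their stem, were found in H1, H2A, H2B or H3 genes only, and the last 3 in H4 genes only, with no exception among the 43. The same hairpin stood in Hist3h2a, with a log2 fold change of 1.04, and in Hist2h3c1, with -0.60. Whether the form of the hairpin goes with the change of a gene was not tested.

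The promoters of 4 genes, one of high level, one of a divergent pair and the pair that moved furthest in opposite directions, are printed from RefSeq on GRCm38.p6, from 250 bases before to 50 after the start. Capitals mark the letters TATAAA of the TATA box, the CCAAT box that NF-Y binds, and the octamer ATTTGCAT, each searched on both strands, and no 2 marked matches overlap in these 4 windows.
Hist1h4d, chr13:23581318-23581617, plus strand: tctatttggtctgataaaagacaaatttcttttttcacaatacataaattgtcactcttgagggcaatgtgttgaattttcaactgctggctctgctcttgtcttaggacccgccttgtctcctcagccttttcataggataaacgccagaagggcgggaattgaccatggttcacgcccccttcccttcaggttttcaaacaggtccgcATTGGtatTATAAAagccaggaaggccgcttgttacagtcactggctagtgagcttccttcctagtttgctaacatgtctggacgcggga
Hist1h2bg, chr13:23571150-23571449, plus strand: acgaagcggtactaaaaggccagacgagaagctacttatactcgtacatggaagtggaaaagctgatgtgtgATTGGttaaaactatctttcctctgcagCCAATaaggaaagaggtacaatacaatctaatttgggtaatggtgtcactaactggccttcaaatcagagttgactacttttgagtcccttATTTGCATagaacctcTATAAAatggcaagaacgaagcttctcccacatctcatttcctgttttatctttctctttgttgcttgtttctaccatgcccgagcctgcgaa
Hist3h2a, chr11:58954435-58954734, plus strand: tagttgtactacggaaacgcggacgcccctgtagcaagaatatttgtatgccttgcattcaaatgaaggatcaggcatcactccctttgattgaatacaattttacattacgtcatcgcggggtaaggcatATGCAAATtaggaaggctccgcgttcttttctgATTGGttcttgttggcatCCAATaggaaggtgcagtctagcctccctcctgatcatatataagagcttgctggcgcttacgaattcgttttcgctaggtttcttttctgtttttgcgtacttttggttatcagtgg
Hist2h3c1, chr3:96246435-96246734, plus strand: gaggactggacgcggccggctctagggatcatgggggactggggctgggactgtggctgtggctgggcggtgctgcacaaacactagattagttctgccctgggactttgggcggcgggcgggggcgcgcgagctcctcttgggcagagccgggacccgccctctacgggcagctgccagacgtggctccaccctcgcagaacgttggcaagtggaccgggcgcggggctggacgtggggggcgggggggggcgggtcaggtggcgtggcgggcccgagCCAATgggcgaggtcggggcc
Of 55 promoters matched, 60% held the TATA box letters, 85.5% the CCAAT box and 23.6% the octamer, against 13.6%, 37.4% and 1.74% of all 32817 promoters in the RefSeq table. The octamer, a site known to be bound by Oct-1, was found in 7 of 14 H2A and 6 of 14 H2B promoters and in none of the H1, H3 and H4 promoters. CCAAT was found in every promoter of H1, H2A, H2B and H3 and in 3 of 11 of H4. The window of Hist2h3c1 held neither TATAAA nor the octamer, and its CCAAT lay after the start. The same was true of Hist2h3c2, which was not called (log2 fold change 0.30). TATAAA was found in 4 of 10 H3 promoters.

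Most histone genes were higher in aged mice, and so were most other genes below 1000 bases, the length of 44 of the 55 tested histone genes. Levels are in CPM, counts of a gene scaled to 1e6 normalized counts of its library, and a gene is called higher or lower where edgeR's quasi-likelihood test gave an adjusted p below 0.05 over the 9742 genes tested. Of the 55 tested histone genes, 42 were called higher and 1 lower, and 12 were not called, where 22.4% of all genes tested were higher and 23% lower. The median log2 fold change was 0.62 (from -0.60 to 1.04), against 0.01 for all genes tested. The values of the ages did not overlap for 19 histone genes, against 21.8% of all genes tested. After a correction of each library for gene length, 8 histone genes were called higher and 6 lower, where 18.3% and 16.5% of all genes were, and the median was 0.01.

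Summed over all 68 genes, the histone level was 7884, 7624, 6203, 6443, 6238 and 6207 CPM in aged mice 1, 2, 4, 5, 6 and 7. It was 4450, 4391, 3077, 2955, 5869 and 5299 CPM in young mice 1, 2, 5, 6, 9 and 10. The ages did not overlap, with 6767 ± 774 CPM in aged and 4340 ± 1165 CPM in young mice (SD, n = 6 each) and a ratio of 1.56. Young mice 5 and 6 were the lowest of all and young mouse 9 lay just below the lowest aged mouse. In bulk RNA, a change in the share of cells that express these genes and in their mRNA per cell cannot be told apart.

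**Figure D1:**
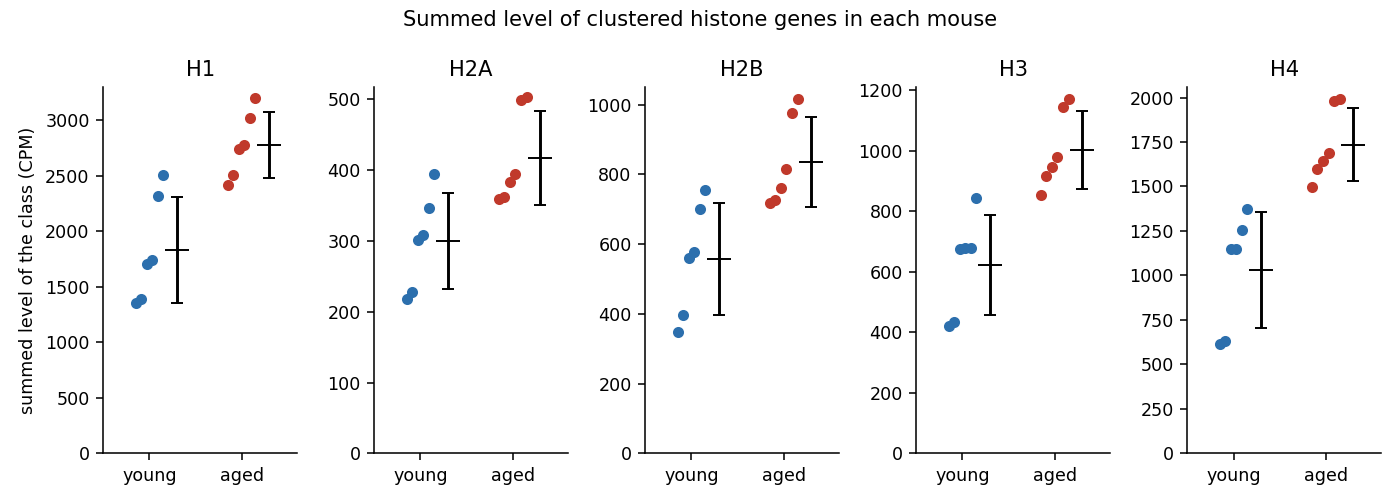
Summed level of each histone class (CPM, linear axis from 0) in 6 young (blue) and 6 aged (red) mice, with 1 point per mouse sorted by level and the mean ± SD beside the points. H3 and H4 do not overlap between the ages, H4 has the largest ratio of means (1.69) and H2A the smallest (1.39).

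By class, the ratio of the summed levels was 1.52 for H1, 1.39 for H2A, 1.50 for H2B, 1.61 for H3 and 1.69 for H4. Differences between the classes were not tested. H1, made by few genes, took 41.1% ± 2.14 of the summed histone CPM in aged and 42.5% ± 2.99 in young mice (SD, n = 6 each), so its share differed by less than the spread between mice. This share follows the lengths of the annotated genes as well as their levels.

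All 5 tested H1 genes, which encode linker histones, were called higher, with a median log2 fold change of 0.62. Hist1h1c (chr13:23738807-23740367, plus strand, mm10 as in the table) took the most counts, at 1020, 1246 and 1341 CPM (lowest, median and highest) in aged and 589, 758 and 1072 CPM in young mice. The highest young mouse lay above the lowest aged one. Its log2 fold change was 0.62 (SE 0.14, edgeR adjusted p = 0.0024). Hist1h1e reached 768 CPM at the aged median and 474 CPM at the young one, Hist1h1d 508 and 326 CPM and Hist1h1b 205 and 142 CPM. Their log2 fold changes were 0.52, 0.66 and 0.58, and the ages overlapped in each. Per kilobase of the table's length, Hist1h1c stood highest of the class at 645 CPM, ahead of Hist1h1e at 333 and Hist1h1b at 276. The testis-specific Hist1h1t had 12 counts in all 12 mice together and was not tested.

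Of the 12 tested H4 genes, which encode the same or nearly the same protein, 10 were called higher with a class median of 0.78. The values of the ages did not overlap for 9. After length correction 1 H4 gene was higher and 1 lower, with a median of 0.11. Hist1h4d (chr13:23581602-23581913, plus strand), highest of all 68 genes per kilobase, lay at 354, 404 and 457 CPM in aged and 176, 256 and 329 CPM in young mice. Every aged mouse was above every young one, and the log2 fold change was 0.69 (SE 0.13, edgeR adjusted p = 0.0008). Hist2h4 lay at 284, 354 and 423 CPM against 116, 240 and 277 CPM, again without overlap (log2 fold change 0.78, SE 0.20, edgeR adjusted p = 0.0051). Hist1h4f and Hist1h4h rose by 0.84 and 0.77 on the log2 scale with no overlap. Hist4h4, alone in its cluster, rose from a young median of 69.9 CPM to an aged median of 100.1 CPM without overlap, and young mice 5 and 6 were the lowest at 20.3 and 22.1 CPM. Its log2 fold change was 0.88 (SE 0.28, edgeR adjusted p = 0.020). The exceptions were Hist1h4a (0.52, edgeR adjusted p = 0.058) and Hist1h4i (-0.13, edgeR adjusted p = 0.51).

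Of 12 tested H3 genes, 10 were called higher and 1 lower, with a median of 0.68, and 6 did not overlap. After length correction 1 was higher and 1 lower, with a median of 0.09. Hist1h3c was highest per kilobase, at 175, 210 and 255 CPM in aged and 81.3, 147 and 186 CPM in young mice. The ranges overlapped slightly, and its log2 fold change was 0.71 (SE 0.18, edgeR adjusted p = 0.0046). Hist1h3e had the smallest p of the class, at 138, 153 and 185 CPM against 74.8, 102 and 130 CPM. It did not overlap between the ages and rose by 0.66 (SE 0.12, edgeR adjusted p = 0.0006). Hist1h3i (0.70), Hist1h3h (0.80) and Hist2h3b (0.85) were also called higher.

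Hist2h3c1 (chr3:96246685-96248509, plus strand), an H3 gene of low level, was the one histone gene called lower. It lay at 5.45, 5.76 and 8.70 CPM in aged mice and at 6.98, 9.16 and 12.9 CPM in young mice. Aged mouse 1, the highest aged value, was the only aged mouse inside the young range. The log2 fold change was -0.60 (SE 0.16, edgeR adjusted p = 0.0085), and 813 counts in all 12 mice lie behind it. When all libraries were thinned to the smallest total, the adjusted p of edgeR was 0.055. Its neighbour Hist2h3c2 was not called, at 15.3, 18.1 and 28.3 CPM against 10.5, 17.2 and 20.8 CPM (log2 fold change 0.30, edgeR adjusted p = 0.22).

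Of 13 tested H2A genes, 7 were called higher and 0 lower by edgeR, with a median of 0.43. DESeq2 also called 0 lower, and 0 had an unadjusted p below 0.05 in that direction, in this class and in H1, H2B and H4. After length correction 1 H2A gene was higher and 3 were lower, with a median of -0.20. Hist3h2a (chr11:58954685-58956674, plus strand) had the largest log2 fold change and the smallest p of all histone genes. It lay at 26.8, 32.8 and 36.5 CPM in aged and 11.3, 16.7 and 18.8 CPM in young mice, so all aged mice stood well above all young ones. The log2 fold change was 1.04 (SE 0.14, edgeR adjusted p = 7.5e-05). The most abundant per kilobase were Hist2h2ac (80.4 and 58.5 CPM at the aged and young medians, log2 fold change 0.62) and Hist1h2ak (64.1 and 54.1 CPM, 0.43). Hist1h2ab rose by 0.57. Hist1h2ag was not called, with aged and young medians of 53.5 and 54.4 CPM and a log2 fold change of 0.32 (edgeR adjusted p = 0.16). Hist2h2ab was called (0.64, edgeR adjusted p = 0.037) on 342 counts in all, and the call was lost without aged mouse 1, 2 or 5 or young mouse 1 or 6 (adjusted p of edgeR 0.051 to 0.082). Hist2h2aa2 had 4 counts and shares its exons with Hist2h2aa1, which had none.

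Of 13 tested H2B genes, 10 were called higher by edgeR with a median of 0.58. After length correction 1 was higher and 1 lower, with a median of -0.06. Hist1h2bg, the most abundant per kilobase, lay at 150, 195 and 239 CPM in aged and 89.8, 122 and 179 CPM in young mice. The ranges overlapped, and the log2 fold change was 0.58 (SE 0.16, edgeR adjusted p = 0.0083). Hist2h2bb rose by 0.85 (SE 0.25), from a young median of 54.6 to an aged median of 82.4 CPM, with 21.6 CPM in the lowest young mouse. Hist1h2bn and Hist1h2bm rose by 0.53 and 0.63. Hist1h2bj (0.37, edgeR adjusted p = 0.13) and Hist2h2be (-0.12, edgeR adjusted p = 0.76) were not called. In Hist3, the pseudogene Hist3h2bb-ps had 94 counts and Hist3h2ba 20, and neither passed the filter of edgeR. DESeq2, which tested both, called Hist3h2bb-ps higher (log2 fold change 1.55, adjusted p = 0.0073), at 0.647 to 1.69 CPM in aged and 0.195 to 0.643 CPM in young mice, and did not call Hist3h2ba (adjusted p = 0.23).

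**Figure D2:**
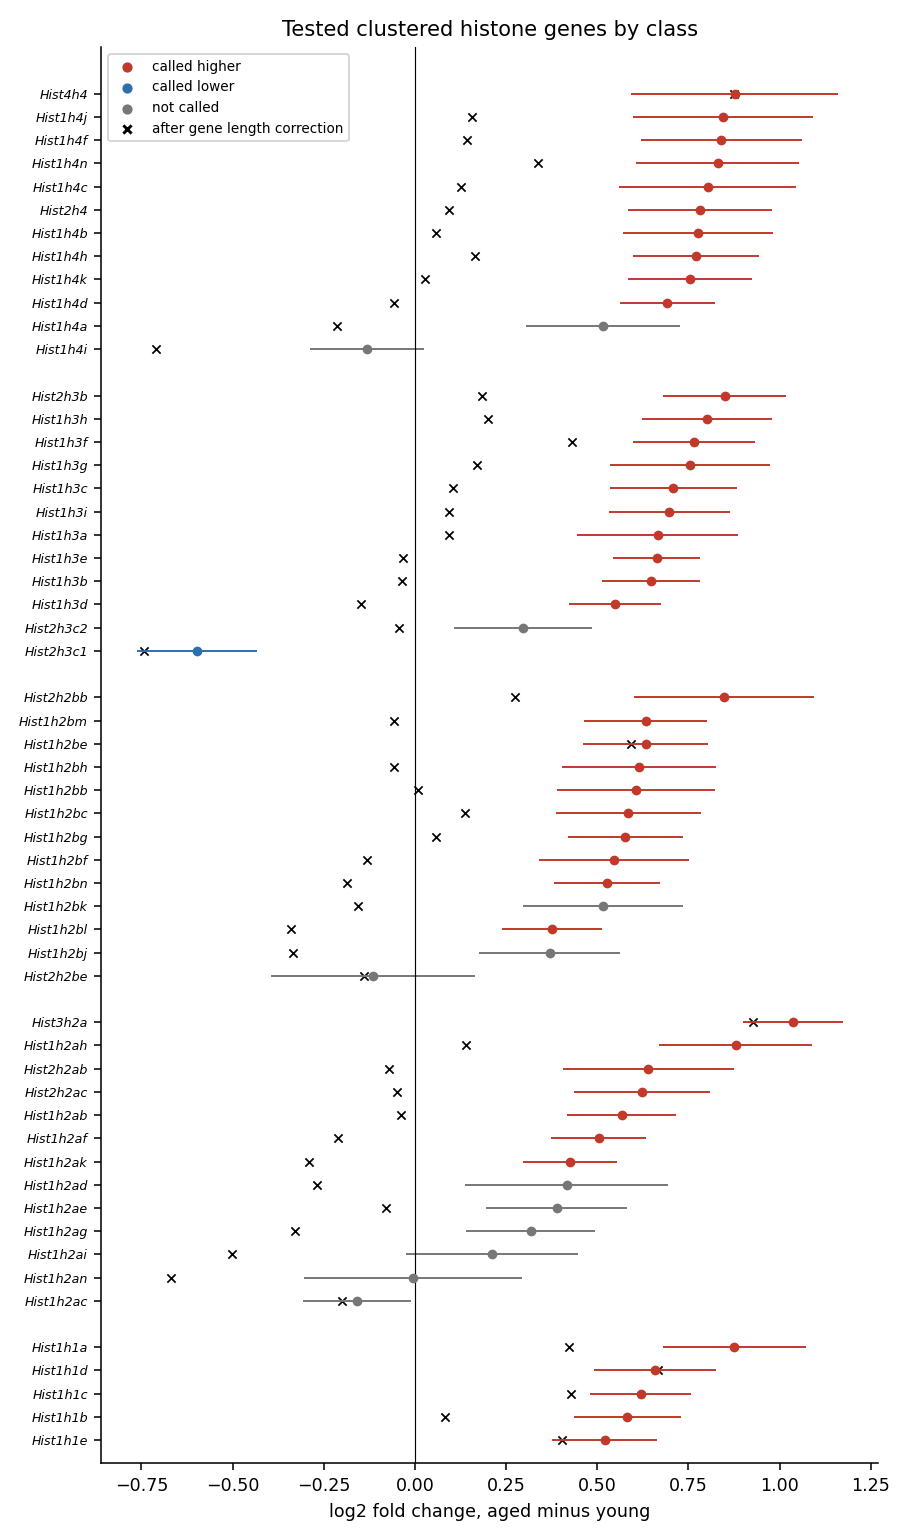
Log2 fold change (aged minus young) of the 55 tested histone genes, ordered by class from H4 at the top to H1 at the bottom. Points and bars are the edgeR estimate ± SE, coloured by call, and crosses are the same after correction for gene length. Crosses lie to the left of most points and centre on 0.01.

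The change in other genes ran with gene length. Among 9687 other tested genes, the log2 fold change fell with the length over exons (Spearman's rho -0.48 across genes, which are not independent replicates). Other genes below 500 bases (n = 109) had a median of 0.68, with 62.4% called higher, and the 35 histone genes of that length had a median of 0.64, with 80% called higher. From 500 to 1000 bases the medians were 0.46 for other and 0.58 for histone genes. At greater length the medians lay further apart, which was not tested. In the range from 1000 to 2000 bases their median was 0.57 (n = 6) against 0.23, and from 2000 to 3000 bases it was 0.63 (n = 5) against 0.05. Within the histone genes rho was -0.10 (n = 55).

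**Figure D3:**
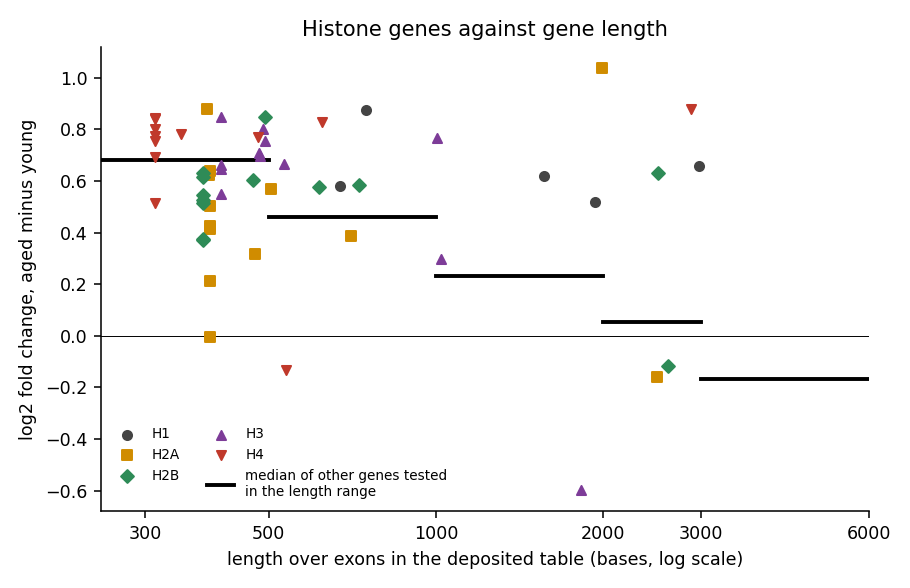
Log2 fold change (aged minus young) of the 55 tested histone genes against the length over exons (bases, log scale), with symbols by class. Black bars give the median of the other tested genes in each length range, from 0.68 below 500 bases to -0.17 from 3000 bases on.

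The annotated lengths of histone genes differ in kind. The table's length is that of the coding stretch alone for 29 of the 68 genes, and 9 genes have more than 1000 bases of annotated transcript after the hairpin. Of these 9, 7 were called higher and 1 lower. Hist3h2a is 1990 bases long in the table and 508 in RefSeq, and Hist2h3c1 1825 and 664. In a choice made after the data were seen, the RefSeq length replaced the table's for histone genes of 1 exon. Then 5 genes were called higher and 5 lower, where 18.3% and 16.5% of all genes were, and the median was 0.04. Hist3h2a stayed higher (0.93 with the table's length, 0.41 with RefSeq's) and Hist2h3c1 lower (-0.74 and -1.15). Hist1h1c, Hist1h1d, Hist1h1e and Hist4h4 were higher with the table's lengths and not called with RefSeq's, where Hist4h4 went from 0.87 to 0.28 (edgeR adjusted p = 0.24). In the H1 class 4 genes were higher with the table's lengths and 1 with RefSeq's, Hist1h1a, and the medians were 0.42 and 0.15. With RefSeq's lengths the medians were -0.17 for H2A, -0.06 for H2B, 0.09 for H3 and 0.13 for H4. Hist1h4i was lower in both (-0.71 and -0.83), and Hist1h2ac, with -0.16 uncorrected, was lower with RefSeq's length (-0.80). Hist1h2bl and Hist1h2ak, called higher before correction (0.37 and 0.43), were called lower with the table's lengths (-0.34 and -0.29). With RefSeq's, Hist1h2bl was lower (-0.28) and Hist1h2ak was not called (-0.18). Hist1h2ag, not called before correction, was lower in both (-0.33 and -0.34).

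**Figure D4:**
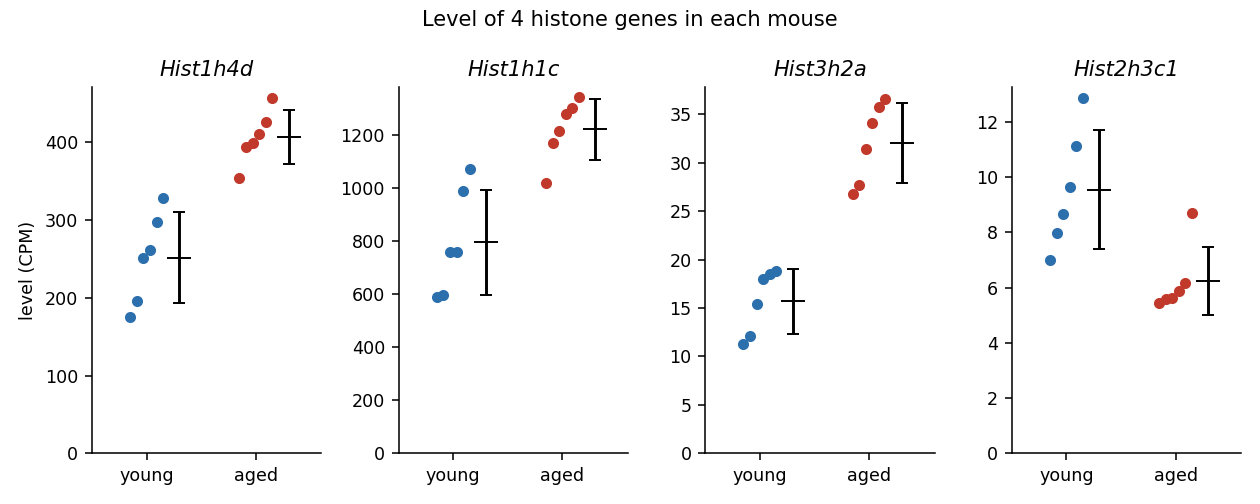
Level (CPM, linear axis from 0) of Hist1h4d, Hist1h1c, Hist3h2a and Hist2h3c1 in 6 young (blue) and 6 aged (red) mice, with 1 point per mouse and the mean ± SD beside the points. Hist3h2a shows the widest gap between the ages relative to its level and Hist2h3c1 the opposite direction.

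Mice far from the mean in the other short genes were often, though not always, so in the histone genes. The median deviation of the 55 histone genes from their mean over 12 mice, in log2 CPM, was -0.73 and -0.87 in young mice 5 and 6. In the same mice, that of the 109 other genes below 500 bases was -0.76 and -0.97. Aged mice 1 and 2 were highest in histone genes, at 0.59 and 0.54, with 0.42 and 0.46 for the other short genes. Aged mice 4, 5 and 6 had 0.35, 0.41 and 0.40 for the other short genes but 0.19, 0.21 and 0.20 for histone genes. Aged mouse 7 and young mouse 9 had near equal deviations in the other short genes, of 0.02 each, and 0.27 and 0.17 in the histone genes. The part that length, RNA quality or library preparation has in the result was not tested. Without young mice 5 and 6, a choice made after the data were seen, 29 histone genes were called higher and 2 lower (Hist1h4i and Hist2h3c1), where 14.1% of all genes tested were higher and 17.9% lower, and the median was 0.38. The alignment files are numbered 11 to 16 for young mice and 17 to 19 and 24 to 26 for aged mice. Against all young mice, the aged mice before the gap gave 39 higher and a median of 0.71, where 16.5% of all genes tested were higher and 17.9% lower. Those after it gave 17 higher, 1 lower and a median of 0.54, where 15.3% of all genes were higher and 15% lower. A batch that changed between the young and aged numbers cannot be told apart from age.

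**Figure D5:**
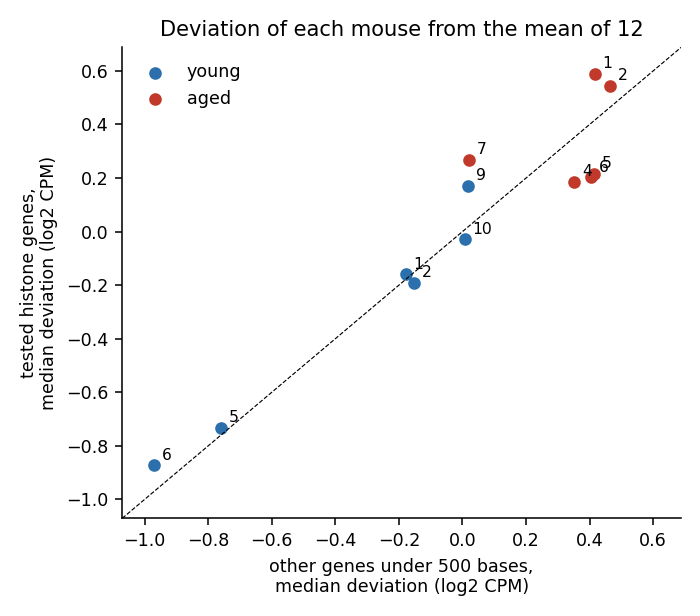
Median deviation from the 12-mouse mean (log2 CPM) of the 55 tested histone genes against that of 109 other genes below 500 bases, with 1 point per mouse, numbered as in the labels. The dashed line marks equal deviations, young mice 5 and 6 lie at the lower left and aged mice 1 and 2 at the upper right.

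Counting could not tell all copies apart. Pairs of reads were kept only at a mapping quality of at least 60, so fragments shared by near-identical copies can be lost. Hist1h2bq, Hist1h2br, Hist1h2ap and Hist2h2aa1 had no count, and each shares exons with another gene. The 13 untested genes held 300 counts together. In 27 genes fewer than 50% of stretches of 100 bases were unique among annotated transcripts, and 14 of the 20 tested ones were called higher, with a median of 0.60. In the 41 others, 28 of 35 were called higher and 1 lower, with a median of 0.62. Of the 27, Hist2h3b and Hist2h2bb, both called higher, had 0% unique stretches and yet held 5478 and 8064 counts. This share does not say how much of a gene could be counted. Hist1h2be shares 8.3% of its exon bases with Hist1h1e, and fragments there cannot be told apart.

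Starts facing away from each other within 1000 bases joined 9 pairs of tested genes. In 7 pairs both genes had positive log2 fold changes. Hist1h2ac (-0.16) faced Hist1h2bc (0.59) across 239 bases, and Hist2h2ac (0.62) faced Hist2h2be (-0.12) across 276 bases. Hist1h2ae (0.39) and Hist1h2bg (0.58) start 179 bases apart, around the printed promoter.

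Genes known to act with the clustered histones are given by list, to be read against the 22.4% higher and 23% lower of all genes tested, or 18.3% and 16.5% after length correction. Among 9 tested histone genes outside the clusters, most of which are expressed through the cell cycle with a poly(A) tail, 6 were called higher with a median of 0.36, and 2 remained so after length correction. H3f3a lay at 411 to 585 CPM in aged and 219 to 378 CPM in young mice (0.70, edgeR adjusted p = 0.0008), and H1f0, linker histone of resting cells, rose by 0.83. H3f3b did not pass the test (-0.20, edgeR adjusted p = 0.22). Of 29 tested genes of histone mRNA transcription and 3' end processing, 6 were higher and 12 lower, with a median of -0.13. Slbp, which binds the stem-loop, lay at 28.6 to 36.1 CPM in aged and 33.0 to 37.5 CPM in young mice and was not called (-0.15, edgeR adjusted p = 0.11), but was lower after length correction (-0.34, edgeR adjusted p = 0.0036). Zcchc6, a terminal uridylyltransferase, fell by 0.59 and Pou2f1, which encodes Oct-1, by 0.51, and Cstf2t rose by 0.51. After length correction 2 were higher and 10 lower, and Pou2f1 had 0.19.

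Of 26 chaperones tested, 1 was higher and 10 lower, with a median of -0.15. Atrx, which with Daxx deposits H3.3, fell by 1.35 from 146 to 265 CPM in young to 55.3 to 105 CPM in aged mice, and Ubn2 fell by 1.15. After length correction both stayed lower, at -0.79 for Atrx and -0.37 for Ubn2. Rbbp4 rose by 0.33. The transcripts of these genes are long (median 3284 bases), and 1 was higher and 6 were lower after length correction.

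Few S phase genes were called. Of 24 tested, 0 were called higher by edgeR or DESeq2, with 0 at an unadjusted p below 0.05, and edgeR called 2 lower, with a median of -0.10. Mki67, a marker of cycling cells, lay at 63.5, 90.3 and 173 CPM in aged and 229, 311 and 674 CPM in young mice, without overlap (log2 fold change -2.01, SE 0.29, edgeR adjusted p = 0.0001). Young mice 5 and 6, the lowest in histone genes, were the highest in Mki67. Top2a fell by 0.62 (edgeR adjusted p = 0.032), a call lost without aged mouse 2, 4, 5 or 6 or young mouse 5 or 6 (adjusted p of edgeR 0.053 to 0.073) and after length correction (-0.41, adjusted p of edgeR 0.12). After that correction, 1 S phase gene was higher (E2f2, 0.22) and 1 lower (Mki67, -1.46). Pcna, the sliding clamp of replication, had a log2 fold change of -0.01 (edgeR adjusted p = 0.97).

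Library totals were 8737941 to 16300374 counts in aged and 4613239 to 9079237 counts in young mice, so values of low genes are less precise in the young. The labelled cells were checked against markers fixed by name. The 8 markers of the sort and of classical monocytes summed to 4311 to 5247 CPM in aged and 4706 to 5130 CPM in young mice. Of the 8, 2 were higher and 1 lower, with a median of 0.10, and 0 were called after length correction. Itgam (CD11b) lay at 2660 to 3481 CPM in aged and 3269 to 3543 CPM in young mice (log2 fold change -0.22, edgeR adjusted p = 0.029). Ly6c2 lay at 605 to 799 CPM in aged and 367 to 595 CPM in young mice. Ccr2, a receptor of classical monocytes, lay at 5.03 to 62.0 CPM in aged and 23.9 to 54.7 CPM in young mice, while Ngp, a granule gene of neutrophil precursors, lay at 34273 to 44393 CPM in aged and 24875 to 35745 CPM in young mice. Neutrophil and granulocyte precursor markers summed to 113881 to 135750 CPM in aged and 72007 to 113598 CPM in young mice, and 8 of 9 tested were higher, 2 after length correction. Resident macrophage markers summed to 40.4 to 771 CPM in aged and 35.7 to 49.5 CPM in young mice, and all 7 tested were higher, also after length correction, with medians of 2.95 and 2.78. Erythroid markers summed to 17.1 to 40.6 CPM in aged and 20.7 to 37.7 CPM in young mice. The 1 tested by edgeR was called lower (-0.47), and 0 were called after length correction. Slc4a1 lay at 0.642 to 9.37 CPM in aged and 0.195 to 1.12 CPM in young mice. Alas2 lay at 0.321 to 3.79 CPM and 0 to 0.217 CPM, and neither passed the filter of edgeR. Klf1 had 1 count over all mice. Hba-a1 and Hba-a2 are listed at 0 throughout, but overlap each other in the table, so their zeros do not bear on erythroid RNA. The part of these cells in the histone result was not tested.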

How the data were processed

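The deposited values are raw counts per gene, which the authors made with featureCounts 2.0.0 per the file headers. Read pairs were counted over exons of an mm10 annotation, on the strand of the gene, and mapping qualities under 60 were dropped. The aligner and whether RNA was selected by poly(A) are not given in the sources used here. No count column was left unused.

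Counts were tested with edgeR 4.0.16 in R 4.3.3 (filterByExpr, TMM factors, quasi-likelihood test, Benjamini-Hochberg adjustment over all genes tested, adjusted p below 0.05). The fit was tried on simulated counts that held no dependence on gene length. That trial cannot show how the fit handles such a dependence. Replicates are separate mice. Alternatives were DESeq2 1.42.0, other scaling and filters, thinning, each mouse left out, a replicate block, parts of the aged group, and corrections of each library for gene length or GC content by lowess offsets (span 0.3). GC content came from GENCODE transcripts for 94.4% of genes tested. Named genes were, per class, the 4 of highest level per length, the smallest p and any called against its class, every Hist2, Hist3 and Hist4 gene with a count, and few per companion list. Other names, such as Slbp, Pcna, Hist1h2bl, Hist1h4i and Hist1h2ac, were chosen after their values were seen. Members and lists were chosen with earlier results of these data known. Label numbers shared across the ages name different mice.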

Additional observations from a re-analysis of the deposited data

Results flagged for a closer look

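Of 72 groups of 6 values examined, 2 held a mouse far from the others of its age, and chance flags about 1 in 20 groups. Hist2h3c1 was at 8.70 CPM in aged mouse 1 and at 5.45 to 6.18 CPM in the other aged mice. Hist2h3c2 was at 28.3 CPM in aged mouse 2 and at 15.3 to 20.1 CPM in the others. Both are H3 genes of low level, and the cause was not tested.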

How the results depend on the processing

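Leaving out each mouse in turn gave 35 to 46 histone genes called higher, 1 lower and a median log2 fold change of 0.51 to 0.74. Of all genes tested, these fits called 19% to 24.1% higher and 19.8% to 24% lower. DESeq2, other scalings, other filters and the GC correction gave 37 to 44 higher, against 42 of 55 in the edgeR fit. Each gave the same 1 lower, Hist2h3c1. They called 14.6% to 25.7% of all genes tested higher and 13.6% to 28.4% lower. DESeq2 tested 62 histone genes, the fit without a filter 64 and that with at least 10 counts in every mouse 50. Thinning gave 40 higher and 0 lower, where 21.9% of all genes were higher and 21.9% lower. Aged mice before the gap in sample numbers against all young mice gave 39 higher and 0 lower, and those after the gap 17 higher. Without young mice 5 and 6, 29 were higher and 2 lower. The numbers shared by 8 mice do not pair them (correlations -0.25 to -0.07). The replicate block gave 48 higher, 1 lower and a median of 0.93 (16.1% of all genes higher, 18.9% lower), and the same 8 mice unblocked gave 47, 1 and 0.91 (21.3% and 23.5%). Against those 8 mice unblocked, the block added calls for the named genes Hist1h2bj and Hist2h3c2 and lost that of Hist2h2ab. Hist1h2ag was called in both.

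Correction for gene length gave 8 higher, 6 lower and a median of 0.0077. With RefSeq lengths it gave 5 higher, 5 lower and a median of 0.039. In both, 18.3% of all genes tested were higher and 16.5% lower. Of 50 positive values, 22 turned negative with the table's lengths and 18 with RefSeq's. Among the named genes called before or after correction, those with the table's lengths were Hist2h2ac (-0.049), Hist1h2ak (-0.29), Hist1h2ag (-0.33), Hist1h2ab (-0.039), Hist1h2bn (-0.19), Hist1h2bm (-0.056), Hist1h3e (-0.032), Hist1h4d (-0.056) and Hist2h2ab (-0.071). Those with RefSeq lengths were Hist1h2ak (-0.18), Hist1h2ag (-0.34), Hist1h2ab (-0.050), Hist1h2bg (-0.063), Hist1h2bn (-0.12), Hist1h4d (-0.0054) and Hist2h2ab (-0.021). The cause of these shifts was not tested. Low counts limit Hist2h2ab, Hist2h3c1 and Hist2h2be.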
